A study of Homo sapiens with 6 samples.

Results

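Of the 46427 genes in the table of read counts, 10 belonged to the set of BCL2 family survival and death genes described here, and they were found by their gene symbol. They were the pro-survival genes BCL2, BCL2L1, BCL2L2 and MCL1, the effector gene BAK1, and the BH3-only genes BID, BIK, BCL2L11, BMF and PMAIP1. All 10 passed the filter on low counts, which left 18366 genes for the test. RNA came from HCT116, a human epithelial cell line from a colorectal carcinoma, grown in DMEM with serum, and the labels name no other treatment of either group. ZK3-WT denotes the parental line with wild-type ZKSCAN3, and ZK3-KO denotes a line made from it in which CRISPR/Cas9 removed the start codon in the first exon of ZKSCAN3, a gene for a zinc finger transcription factor. The mutation was bi-allelic and the cells had passed through puromycin and single-cell selection, a history that the methods do not give for the parental line, and the number of clones sequenced is not stated. Each genotype had 3 biological replicates, and effects of the mutation and of selection cannot be told apart.

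The proteins of the BCL2 family decide at the outer mitochondrial membrane whether a cell enters apoptosis. Pro-survival proteins hold the effectors BAX and BAK in check, and BH3-only proteins, which sense growth factor loss, DNA damage or stress in the endoplasmic reticulum, bind the pro-survival proteins or the effectors so that the membrane is opened and cytochrome c is released. Much of this control acts on protein stability, phosphorylation and binding, which read counts do not measure. Colon carcinoma cells are known to rely mainly on BCL-XL and MCL1, the products of BCL2L1 and MCL1, rather than on BCL2. Counts per gene also merge isoforms such as the long and short forms of BCL-X, which have opposite roles.

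Levels of known regulators of BH3-only genes are given further on, and their binding was not measured. Promoter sequences are shown for 3 members with a lower level in ZK3-KO cells in all or part of the libraries. Each is the stretch of 250 bases upstream of the transcription start, from RefSeq on GRCh38.p14, written 5′ to 3′ on the strand of the gene, and capitals mark a motif. The RefSeq table held an entry for 7 of the 10 members, with none for BCL2L2, MCL1 and BIK. The motifs searched, on both strands, were the FOXO motif GTAAACA and the half-site ACGTCA of the cyclic AMP response element bound by ATF and CREB factors. BCL2L11 lies at chr2:111120664-111120913 on the plus strand, with GTAAACA beginning 223 bases before the start.
BCL2L11: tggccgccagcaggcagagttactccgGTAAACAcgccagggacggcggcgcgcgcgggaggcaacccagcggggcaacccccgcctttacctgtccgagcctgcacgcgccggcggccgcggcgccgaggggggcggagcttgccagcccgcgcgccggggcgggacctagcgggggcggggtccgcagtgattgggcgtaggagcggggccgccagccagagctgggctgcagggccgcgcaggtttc
PMAIP1 lies at chr18:59899746-59899995 on the plus strand, with ACGTCA beginning 56 bases before the start.
PMAIP1: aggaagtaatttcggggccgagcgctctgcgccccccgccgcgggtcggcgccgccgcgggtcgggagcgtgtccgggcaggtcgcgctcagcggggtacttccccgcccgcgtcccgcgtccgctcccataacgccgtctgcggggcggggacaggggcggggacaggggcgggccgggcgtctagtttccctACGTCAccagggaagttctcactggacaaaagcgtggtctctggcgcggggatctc
BCL2L1 lies at chr20:31723964-31724213 on the minus strand. The first of its 2 listed starts was used, and neither motif was found in this window.
BCL2L1: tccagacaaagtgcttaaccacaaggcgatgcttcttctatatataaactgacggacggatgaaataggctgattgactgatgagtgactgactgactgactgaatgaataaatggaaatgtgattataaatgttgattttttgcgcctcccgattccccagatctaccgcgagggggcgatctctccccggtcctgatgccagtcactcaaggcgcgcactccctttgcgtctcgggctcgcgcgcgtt
GTAAACA was present in 2.98% of 27305 such promoters and in 1 of the 7 members with a sequence, and ACGTCA in 7.42% of promoters and also in 1 of the 7. A match to these letters describes the sequence and does not show binding.

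Between 60827060 and 69739215 reads were counted per library. ZK3-KO replicate 3 stood apart in the correlation of log2 CPM (reads scaled to library size) across genes. It had 0.963 and 0.950 with ZK3-KO replicates 1 and 2, against 0.985 between those and 0.983 to 0.989 among ZK3-WT replicates. Between the genotypes the correlations ran from 0.952 to 0.974, with 0.965 for ZK3-KO replicate 3 and ZK3-WT replicate 3. They overlapped with those within ZK3-KO, so the libraries did not group by genotype alone. Results are therefore given with and without ZK3-KO replicate 3, and 3 values in a row are those of replicates 1, 2 and 3. This library was picked from the same values that were then tested, so FDRs without it are a description only. In edgeR's test 376 genes passed the FDR of 0.05 with all libraries and 2858 without it. Reads of ZKSCAN3 itself did not separate the genotypes (log2 fold change -0.16, edgeR FDR 0.797), and reads per gene do not show the edited bases. All 6 epithelial markers were detected, with a summed TPM (reads scaled by transcript length and library) of 3956 to 5109 in the ZK3-WT libraries and 3576 to 6046 in ZK3-KO libraries. None of 5 leukocyte markers or 4 endothelial markers exceeded 1 TPM in any library, and PTPRC, CD3E and TYROBP were at 0. Of 5 fibroblast markers only COL1A1 exceeded 1 TPM, and the 5 summed to between 12.1 and 29.3 TPM.

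The transcripts of the family spanned a wide range in parental cells. By mean TPM, BCL2L1 was the most abundant member in ZK3-WT cells at 261 ± 63.5 (SD, n = 3), followed by MCL1 at 120 ± 11.8 and PMAIP1 at 71.9 ± 23.5. BCL2L2 followed at 39.1 ± 3.69, BID at 25.7 ± 2.72, BAK1 at 23.6 ± 2.21, BIK at 18.0 ± 2.12 and BCL2L11 at 12.95 ± 1.13. BMF at 1.73 ± 0.852 TPM and BCL2, the founding member of the family, at 1.09 ± 0.158 TPM were the least abundant. Neighbours in this order had separate ranges over the ZK3-WT libraries except BID with BAK1 and BMF with BCL2. In ZK3-KO cells the ranges of BCL2L1 (140 ± 74.0 TPM) and MCL1 (134 ± 19.3 TPM) overlapped. PMAIP1 (36.1 ± 5.15 TPM) remained next in order, and BCL2L2 (23.9 ± 3.87 TPM) came after BID and BAK1, with overlapping ranges from PMAIP1 through BIK at each step. BCL2L11 (8.35 ± 1.11 TPM) was separate from the genes before and after it, and BMF and BCL2 remained lowest with overlapping ranges.

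To compare the genotypes, the read counts of all 18366 genes were tested with edgeR's quasi-likelihood method. None of the 10 members passed an FDR of 0.05, where 0.817% of all genes passed as higher and 1.23% as lower in ZK3-KO cells. DESeq2 called 1 member, BCL2L11, as lower, where it called 795 of all 18366 genes as lower and 711 as higher. At an unadjusted p under 0.05 in edgeR's test, 3 members were lower, namely BCL2L2, BCL2L11 and PMAIP1, and none was higher, where 9.46% of all genes were lower and 8.89% higher. Without ZK3-KO replicate 3, 4 members passed the FDR, all lower in ZK3-KO cells, namely BCL2L1, BCL2L2, BCL2L11 and PMAIP1, where 7.73% of the 18872 genes tested passed as lower and 7.41% as higher. On all 6 libraries 5 members had a log2 fold change above 0 and 5 below 0, with a median of -0.09 against 0.02 over all genes tested, and without ZK3-KO replicate 3 the medians were -0.28 and -0.02. In CPM the libraries of the genotypes did not overlap for 1 member, BCL2L11, which was lower in every ZK3-KO library, where 13.8% of all genes lay wholly below and 12.7% wholly above. In TPM they did not overlap for 3 members, BCL2L2, BCL2L11 and PMAIP1, all lower in the ZK3-KO libraries, where 18.4% of genes lay wholly below and 6.83% wholly above. TPM does not carry the TMM factor, which was 0.910 in ZK3-KO replicate 3 and 0.994 to 1.03 in the other libraries. In these bulk samples, fewer cells with a transcript and less of it per cell cannot be told apart.

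**Figure D1:**
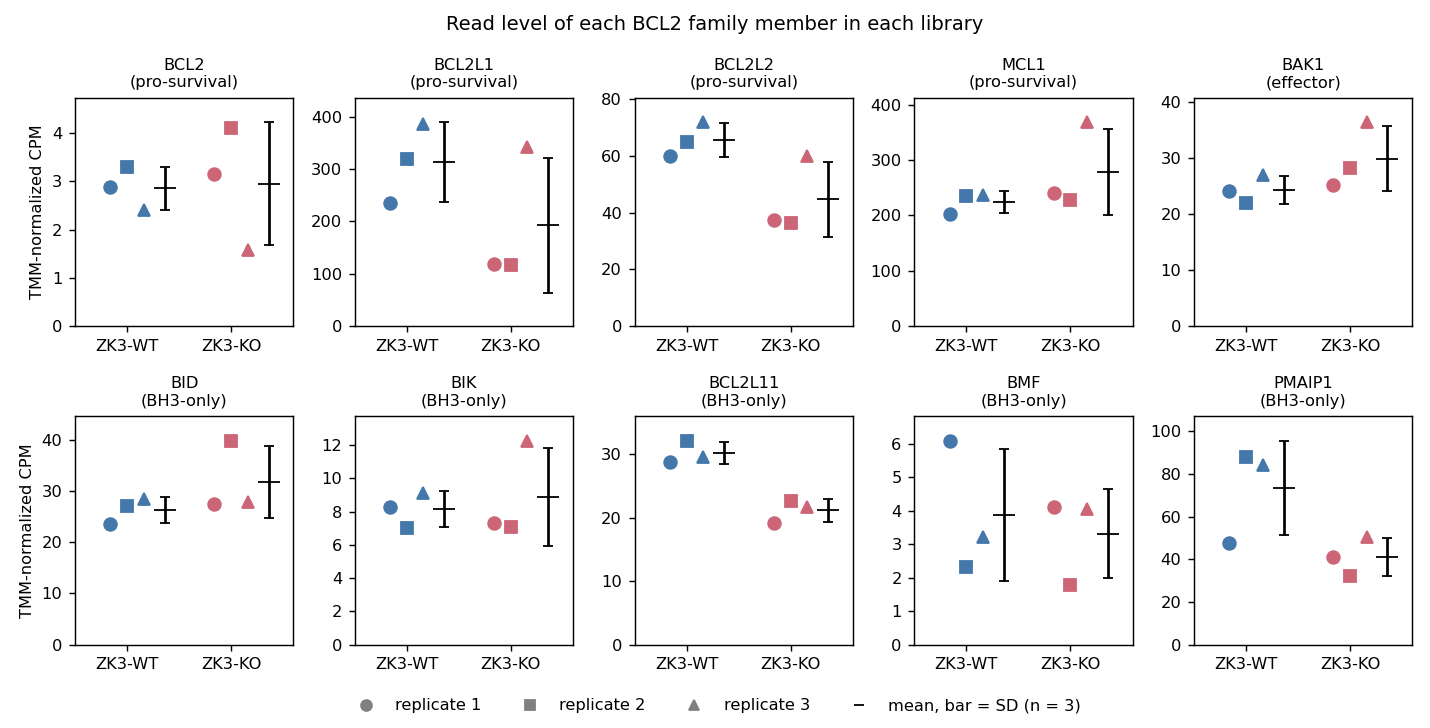
TMM-normalized CPM (vertical axis, from 0, with its own scale for each gene) of the 10 members in each library, with blue points for ZK3-WT and red points for ZK3-KO, the shape giving the replicate, and a bar for the mean and SD of 3 replicates. BCL2L11 is the 1 member without overlap of the groups, where 13.8% of all genes lay wholly below and 12.7% wholly above. For BCL2L1 ZK3-KO replicate 3 sits at 341 CPM while replicates 1 and 2 sit at 119 and 118.

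Among the pro-survival genes, BCL2L1 had the widest spread within ZK3-KO cells. BCL2L1 encodes BCL-XL, which binds BAX, BAK and most BH3-only proteins, and lies at 20:30252255-30311792 on the minus strand (GRCh37, as all gene positions that follow). Its TMM-normalized CPM was 234, 319 and 386 in the ZK3-WT libraries and 119, 118 and 341 in the ZK3-KO libraries. ZK3-KO replicates 1 and 2 were below every ZK3-WT library, and ZK3-KO replicate 3 lay within the ZK3-WT range. Between libraries of the same replicate number, the ZK3-KO library was the lower one in all 3 pairs. What these numbers mark is not stated, and ZK3-KO replicate 3 was above ZK3-WT replicates 1 and 2. The log2 fold change of ZK3-KO over ZK3-WT cells, with its standard error (SE), was -0.70 (SE 0.44, edgeR FDR 0.438), which is within the spread between replicates, and -0.87 with the replicate number as a block (edgeR FDR 0.135). Without ZK3-KO replicate 3 it was -1.40 (SE 0.21, edgeR FDR 0.00447), a level 2.64-fold lower. Over the 13 alternatives of the processing the FDR ran from 0.00447 to 0.731 and only the one without ZK3-KO replicate 3 passed. The long noncoding RNA gene ABALON overlaps BCL2L1 on the opposite strand, with 923 reads over all libraries against 100994 of BCL2L1.

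BCL2L2 encodes BCL-W, a close relative of BCL-XL, and lies at 14:23767999-23780960 on the plus strand. Its CPM was 59.9, 65.0 and 71.9 in the ZK3-WT libraries and 37.4, 36.5 and 60.0 in the ZK3-KO libraries. ZK3-KO replicates 1 and 2 were again below all ZK3-WT libraries, while ZK3-KO replicate 3 overlapped with ZK3-WT replicate 1. It had a log2 fold change of -0.56 (SE 0.22, edgeR unadjusted p 0.0375, FDR 0.241) and -0.82 without ZK3-KO replicate 3 (SE 0.14, edgeR FDR 0.00864), or 1.77-fold lower. The FDR ran from 0.00864 to 0.556 over the alternatives, of which 1 passed. The value of BCL2L2 stood against that of its chromosome. The 503 tested genes of chromosome 14 had a median log2 fold change of 0.51, with 99 of them below 0, and the 10 tested genes nearest to BCL2L2 had a median of 0.20, whereas the medians of the other chromosomes that hold members lay between -0.00 and 0.05. The HOMEZ gene (9103 reads over all libraries, against 21999 of BCL2L2) overlaps BCL2L2 on the opposite strand, and the readthrough gene BCL2L2-PABPN1 (223 reads) overlaps it on the same strand. The strand setting of the counting is not given in the sources used here.

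MCL1 encodes a short-lived pro-survival protein that is controlled largely by its degradation, and lies at 1:150533371-150552214 on the minus strand. Its CPM was 202, 235 and 237 in the ZK3-WT libraries and 240, 227 and 368 in the ZK3-KO libraries. ZK3-KO replicate 3 had the highest level and ZK3-KO replicate 2 lay within the ZK3-WT range. MCL1 had a log2 fold change of 0.31 (SE 0.22, edgeR FDR 0.494) and 0.06 (SE 0.13, edgeR FDR 0.789) without ZK3-KO replicate 3. BCL2, which lies at 18:60790579-60987361 on the minus strand, had the fewest reads of the members, 98 to 285 per library. Its CPM was 2.88, 3.30 and 2.40 in the ZK3-WT libraries and 3.15, 4.11 and 1.59 in the ZK3-KO libraries, so that the highest and the lowest library were both ZK3-KO. Its log2 fold change was 0.05 (SE 0.36, edgeR FDR 0.963), and the sign was not the same in all alternatives.

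**Figure D2:**
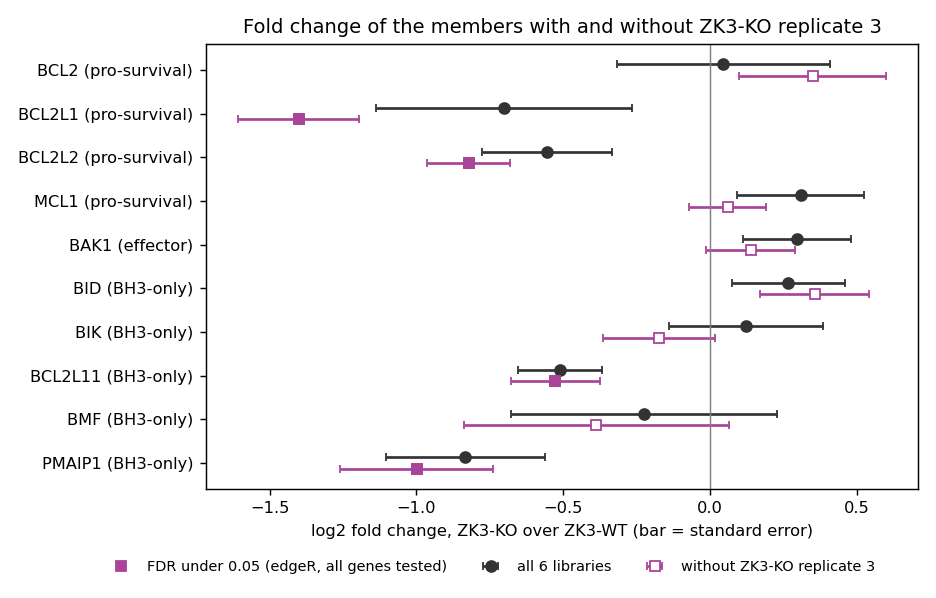
Log2 fold change of ZK3-KO over ZK3-WT (horizontal axis) for each member from edgeR, with bars for the standard error. Black circles use all 6 libraries and purple squares leave out ZK3-KO replicate 3, filled where the FDR was under 0.05. The 4 filled squares are BCL2L1 (-1.40), BCL2L2 (-0.82), BCL2L11 (-0.53) and PMAIP1 (-0.9995), and no black circle passed the FDR.

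Because TPM is scaled by transcript length, the 4 pro-survival genes were also compared with each other within each library. MCL1 made up 31.8%, 29.2% and 25.7% of their summed TPM in the ZK3-WT libraries and 51.1%, 50.02% and 38.1% in the ZK3-KO libraries. Its share was higher in every ZK3-KO library than in any ZK3-WT library, with means of 28.9% ± 3.03 and 46.4% ± 7.24 (SD, n = 3) and a difference of 17.5 percentage points. The difference was 21.7 percentage points without ZK3-KO replicate 3 and at least 15.1 when any other single library was left out. BCL2L1 made up 57.4%, 61.5% and 65.4% in the ZK3-WT libraries and 39.5%, 40.4% and 54.9% in the ZK3-KO libraries. BCL2L1 was thus the leading pro-survival transcript in all ZK3-WT libraries and in ZK3-KO replicate 3, and MCL1 in ZK3-KO replicates 1 and 2. The log2 ratio of BCL2L1 to MCL1 was 0.85, 1.07 and 1.34 in the ZK3-WT libraries and -0.37, -0.31 and 0.53 in the ZK3-KO libraries. BCL2L2 took between 6.92% and 10.5% of the sum and BCL2 between 0.0954% and 0.683%. The summed TPM of the 4 genes was 336, 441 and 488 in the ZK3-WT libraries and 248, 240 and 410 in the ZK3-KO libraries, so the shares refer to unequal totals. These shares are a description of chosen members, and with 3 libraries against 3 an exact permutation test could not give a p below 0.1.

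**Figure D3:**
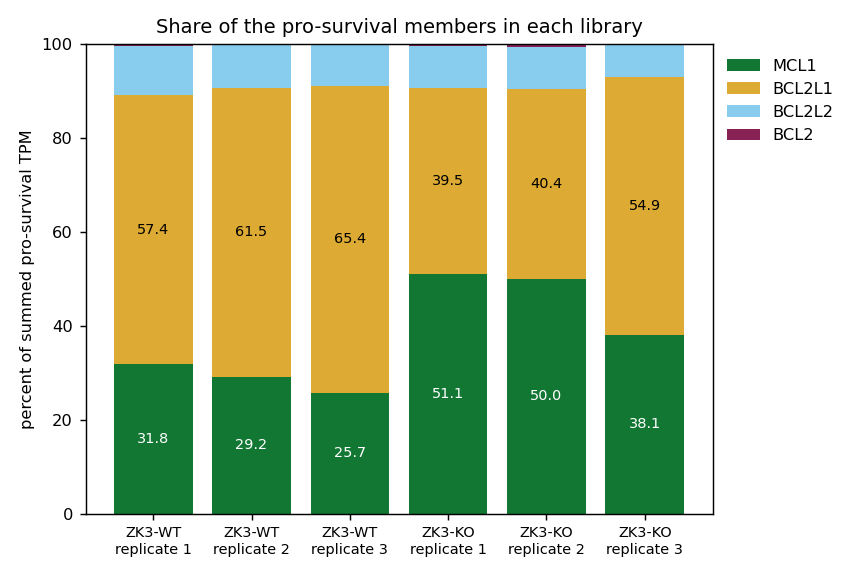
Percent of the summed TPM of BCL2, BCL2L1, BCL2L2 and MCL1 taken by each gene (vertical axis) in each of the 6 libraries (bars). MCL1 takes 25.7% to 31.8% in the ZK3-WT libraries and 38.1% to 51.1% in ZK3-KO libraries, and BCL2 is barely visible at under 1%.

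BAK1, the effector among the members, encodes BAK, which forms pores in the outer mitochondrial membrane, and lies at 6:33540324-33548070 on the minus strand. Its CPM was 24.1, 21.9 and 26.9 in the ZK3-WT libraries and 25.1, 28.2 and 36.3 in the ZK3-KO libraries. The highest value was in ZK3-KO replicate 3 and the groups overlapped. For BAK1 the log2 fold change was 0.30 (SE 0.18, edgeR FDR 0.437) and 0.14 (edgeR FDR 0.574) without ZK3-KO replicate 3. Reads of BAK1 can be shared with its pseudogene BAK1P1, which had 1.46 to 3.01 CPM.

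Among the BH3-only genes was BCL2L11, the 1 member whose groups did not overlap in CPM. Of all 18366 genes tested, 13.8% lay wholly below and 12.7% wholly above in CPM. BCL2L11 encodes BIM, which binds all pro-survival proteins and can activate BAX and BAK directly, and lies at 2:111876955-111926021 on the plus strand. Its CPM was 28.8, 32.1 and 29.5 in the ZK3-WT libraries and 19.2, 22.6 and 21.7 in the ZK3-KO libraries. All ZK3-KO libraries, replicate 3 included, lay below all ZK3-WT libraries. The means were 30.2 ± 1.73 and 21.2 ± 1.77 CPM (SD, n = 3), and the log2 fold change was -0.51 (SE 0.14, edgeR unadjusted p 0.00830, FDR 0.129), a level 1.43-fold lower. It was -0.53 (SE 0.15, edgeR FDR 0.0463) without ZK3-KO replicate 3, and DESeq2 gave an FDR of 0.0278 with all libraries. Over the 13 alternatives the log2 fold change of BCL2L11 lay between -0.60 and -0.44, and the FDR between 0.0278 and 0.444, with these 2 under 0.05. The long noncoding RNA gene MIR4435-2HG overlaps BCL2L11 on the opposite strand and had 4016 reads over all libraries, against 10274 of BCL2L11.

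PMAIP1 encodes NOXA, a BH3-only protein that binds mainly MCL1 and promotes its degradation, and lies at 18:57567228-57571537 on the plus strand. Its CPM was 47.8, 87.98 and 84.2 in the ZK3-WT libraries and 40.9, 32.3 and 50.2 in the ZK3-KO libraries. ZK3-WT replicate 1 lay below ZK3-KO replicate 3 and the other ZK3-WT libraries lay above all of ZK3-KO. Between the genotypes the log2 fold change was -0.83 (SE 0.27, edgeR unadjusted p 0.0164, FDR 0.173), a level 1.78-fold lower. Without ZK3-KO replicate 3 it was -0.9995 (SE 0.26, edgeR FDR 0.0347), and the FDR ran from 0.0347 to 0.524 over the alternatives, of which 1 passed.

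BID, BIK and BMF overlapped between the genotypes. BID, at 22:18216904-18257536 on the minus strand, links death receptors to mitochondria once caspase-8 has cleaved it, and its CPM was 23.6, 27.2 and 28.4 in the ZK3-WT libraries and 27.5, 39.8 and 27.9 in the ZK3-KO libraries. ZK3-KO replicate 2 was the one library above the rest, and the log2 fold change was 0.27 (SE 0.19, edgeR FDR 0.506). BIK, at 22:43506756-43525718 on the plus strand, encodes a BH3-only protein of the endoplasmic reticulum, and its CPM was 8.30, 6.99 and 9.14 in the ZK3-WT libraries and 7.31, 7.07 and 12.2 in the ZK3-KO libraries. ZK3-KO replicate 3 was highest, and the log2 fold change was 0.12 (SE 0.26, edgeR FDR 0.841). BMF, at 15:40380091-40401093 on the minus strand, encodes a BH3-only protein known for a role when cells lose attachment, and its CPM was 6.09, 2.31 and 3.22 in the ZK3-WT libraries and 4.10, 1.79 and 4.06 in the ZK3-KO libraries. In BMF the spread within each genotype exceeded the difference between them, with a log2 fold change of -0.22 (SE 0.45, edgeR FDR 0.833). Without ZK3-KO replicate 3 the log2 fold changes of BID, BIK and BMF were 0.36, -0.17 and -0.39, and none passed the FDR in edgeR's test or in any alternative. Other single libraries moved BID and BMF as well. BID was at 0.07 without ZK3-KO replicate 2, and BMF was at 0.26 without ZK3-WT replicate 1 and at 0.077 without ZK3-KO replicate 2, the opposite sign.

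The 5 BH3-only members were then set against the 4 pro-survival members as the log2 ratio of their summed TPM in each library. The ratio was -1.73, -1.57 and -1.79 in the ZK3-WT libraries and -1.45, -1.34 and -2.17 in the ZK3-KO libraries. ZK3-KO replicates 1 and 2 had the highest ratios and ZK3-KO replicate 3 the lowest. The means were -1.70 ± 0.114 and -1.65 ± 0.450 (SD, n = 3), with a difference of 0.04 that is smaller than the spread between replicates, and 0.30 without ZK3-KO replicate 3. Summed TPM of the 5 BH3-only members was 101, 149 and 142 in the ZK3-WT libraries and 90.9, 94.6 and 91.4 in the ZK3-KO libraries. PMAIP1 was the largest single part of this sum in ZK3-WT cells. BAD, BBC3 and HRK, BH3-only genes outside the members, were not part of the sum or the ratio. Their mean TPM was 41.2, 47.1 and 2.91 in ZK3-WT cells and 48.2, 38.5 and 1.78 in ZK3-KO cells. The sums therefore do not describe all BH3-only transcripts.

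The rest of the family was described from a list of 14 genes, of which 11 passed the filter. BCL2A1, BCL2L10 and BCL2L14 did not, with at most 3, 10 and 31 reads in any library. Of the 11 genes, 1 passed the FDR, where 0.817% of all genes passed as higher and 1.23% as lower. This was BAX, which rose in ZK3-KO cells. BAX encodes the partner effector of BAK, and its CPM was 35.5, 26.8 and 33.0 in the ZK3-WT libraries and 52.6, 60.7 and 57.3 in the ZK3-KO libraries. Here ZK3-KO replicate 3 lay between the other ZK3-KO libraries, all of them above ZK3-WT. In CPM 12.7% of all genes lay wholly above and 13.8% wholly below. The log2 fold change of BAX was 0.84 (SE 0.16, edgeR FDR 0.0469), and with the replicate number as a block the FDR of edgeR's test was 0.0584. BAX passed in 2 of the 13 alternatives, DESeq2 and the one without ZK3-KO replicate 3, with an FDR up to 0.230 in the others and of 0.0115 in edgeR's test without that library. The TPM ratio of BAX to BCL2L1, a quantity chosen after the values were seen, was 0.342, 0.205 and 0.194 in the ZK3-WT libraries and 1.04, 1.16 and 0.367 in the ZK3-KO libraries.

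Of the other 10 genes of the family, the BH3-only gene BAD had a log2 fold change of 0.40 (edgeR FDR 0.268) and the effector-like gene BOK one of 0.27. The BH3-only genes HRK and BBC3 (encoding PUMA) had log2 fold changes of -0.55 and -0.11, and these were -0.79 (edgeR FDR 0.0249) and -0.88 (edgeR FDR 0.0707) without ZK3-KO replicate 3. For HRK the FDR ran from 0.0249 to 0.614 over the alternatives, of which 1 passed. BBC3 was at 32.2, 37.2 and 45.3 CPM in the ZK3-WT libraries and 28.0, 13.5 and 65.0 CPM in the ZK3-KO libraries, so that ZK3-KO libraries lay on both sides of ZK3-WT. The less studied relatives BCL2L12, BCL2L13 and BCL2L15 had log2 fold changes of 0.37, -0.26 and -0.70 (edgeR FDR 0.291, 0.438 and 0.405). BCL2L15 had only 20 to 66 reads per library and an SE of 0.40, and was at -0.44 without ZK3-KO replicate 3. BNIP3 and BNIP3L, which are better known for the removal of mitochondria, had log2 fold changes of 0.53 and -0.04, and BECN1, a BCL2-binding autophagy gene, was at 0.02. BNIP3 ranged from 0.097 without ZK3-KO replicate 1 to 1.13 without ZK3-WT replicate 1. In this list 6 genes had a log2 fold change above 0 and 5 below 0.

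Genes that act next to the family were counted in lists that follow the pathway, chosen with earlier results of these data known. Of all 18366 genes tested, 9488 had a log2 fold change above 0 and 8878 below 0. Without ZK3-KO replicate 3, 7.41% of all genes tested passed the FDR as higher and 7.73% as lower. With all libraries 0.817% passed as higher and 1.23% as lower. At an unadjusted p under 0.05 in edgeR's test, 8.89% were higher and 9.46% lower. None of the 17 genes of the apoptosome, the caspases and their inhibitors passed the FDR in edgeR's test, with 1 at an unadjusted p under 0.05 in each direction and a median log2 fold change of 0.13. Without ZK3-KO replicate 3, 2 of them passed as higher and 1 as lower. The lowest p was that of BIRC3, the gene of the inhibitor cIAP2 (log2 fold change -0.78, edgeR FDR 0.190). The 5 outer membrane partners of the family had log2 fold changes above 0, with a median of 0.41, and none passed the FDR with all libraries, with 1 at an unadjusted p under 0.05 in edgeR's test, and 3 passed as higher without ZK3-KO replicate 3. VDAC1, a channel of the outer membrane to which family members bind, had the lowest p (log2 fold change 0.42, edgeR FDR 0.242). Of 5 tested genes for the turnover of MCL1 and other family proteins none passed in edgeR's test or had an unadjusted p under 0.05, and FBXW7, a ubiquitin ligase subunit that targets MCL1, had the lowest p (log2 fold change 0.17, edgeR FDR 0.580).

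Transcription factors known to drive BH3-only genes held 1 gene past the FDR among 10 tested, where 0.817% of all genes passed as higher and 1.23% as lower. Their median log2 fold change was -0.09. Without ZK3-KO replicate 3, 2 of them passed as higher and 3 as lower. The 1 gene past the FDR with all libraries was FOXO4, a forkhead factor, which fell in ZK3-KO cells. Its CPM was 16.8, 16.3 and 15.3 in the ZK3-WT libraries and 7.11, 4.67 and 8.30 in the ZK3-KO libraries. The groups did not overlap, where 13.8% of all genes lay wholly below and 12.7% wholly above. The log2 fold change of FOXO4 was -1.27 (SE 0.23, edgeR FDR 0.0454), and 6 of 13 alternatives passed, with an FDR up to 0.210 in the others. The related genes FOXO1 and FOXO3, named after their values were seen, did not pass. FOXO1 had the opposite sign (log2 fold change 0.44, edgeR FDR 0.371) and was at 0.63 without ZK3-KO replicate 3 (edgeR FDR 0.0496, the lowest of its alternatives, which reached 0.695). FOXO3 was the most abundant of these 3 genes in CPM, at 90.6 ± 8.15 in ZK3-WT and 80.0 ± 9.47 in ZK3-KO cells (SD, n = 3), with a log2 fold change of -0.18 (edgeR FDR 0.576). No value here ties any of them to the motif in the BCL2L11 promoter. Among 20 p53 target genes outside the family, 18 had a log2 fold change above 0, where 9488 of all 18366 genes did. Their median was 0.19. Without ZK3-KO replicate 3, 5 of the 20 passed as higher and 1 as lower, where 7.41% and 7.73% of all genes did. With all libraries 1 passed as higher, namely SPATA18. It had 0, 0 and 5 reads in the ZK3-WT libraries and 117, 140 and 62 reads in the ZK3-KO libraries (edgeR FDR 0.0253). SPATA18 passed in 8 alternatives and had an FDR up to 0.140 in the others. BAX, BBC3 and PMAIP1 are themselves known p53 targets, and their log2 fold changes were 0.84, -0.11 and -0.83.

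ATF4 is a stress factor known to induce PMAIP1 and BBC3, and of 11 tested ATF4 stress genes 10 had a log2 fold change below 0. Their median was -0.29, none passed the FDR with all libraries in edgeR's test, 1 had an unadjusted p under 0.05, and 6 passed as lower without ZK3-KO replicate 3, where the median was -1.39. SLC7A11, a cystine transporter gene, had the lowest p (log2 fold change -1.05, edgeR FDR 0.219). All 14 G1/S genes had a log2 fold change above 0, with a median of 0.83. None of them passed with all libraries in edgeR's test, 2 had an unadjusted p under 0.05, and 13 passed as higher without ZK3-KO replicate 3, where the median was 1.23. CCNE1, the gene of cyclin E1, had the lowest p (log2 fold change 0.79, edgeR FDR 0.0903). Of all 18366 genes tested, 9488 had a log2 fold change above 0 and 8878 below 0. With all libraries, 8.89% were higher and 9.46% lower at an unadjusted p under 0.05 in edgeR's test. Without ZK3-KO replicate 3, 7.41% of all genes tested passed as higher and 7.73% as lower. The ATF4 and G1/S lists were chosen with earlier results of these data known, so their counts are a description.

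Levels of BCL2L1, PMAIP1 and BCL2L11 were set beside these lists in each library, and no correlation with the lists was computed. Relative to the ZK3-WT mean on the log2 scale, the median of the ATF4 stress genes was -0.59, 0.14 and 0.50 in the ZK3-WT libraries and -0.81, -2.06 and 0.80 in the ZK3-KO libraries. That of the G1/S genes was 0.36, -0.23 and -0.08 in the ZK3-WT libraries and 0.91, 1.501 and -0.54 in ZK3-KO. BCL2L1 was at -0.39, 0.06 and 0.33 in the ZK3-WT libraries and -1.37, -1.38 and 0.15 in the ZK3-KO libraries on the same scale, with ZK3-KO replicate 3 within the ZK3-WT range, while in both lists it lay outside that range on the side away from ZK3-KO replicates 1 and 2. PMAIP1 was at -0.57, 0.31 and 0.25 and then -0.79, -1.13 and -0.49, with the lowest ZK3-WT library again being replicate 1. It did not follow the ATF4 stress genes in ZK3-KO replicate 3. There their median was the highest of all libraries at 0.80, while PMAIP1 was below the ZK3-WT mean at -0.49. BCL2L11 was at -0.06, 0.09 and -0.03 and then -0.65, -0.42 and -0.47, with ZK3-KO replicate 3 beside the other ZK3-KO libraries. The 19 p53 target genes with reads in every library had medians from -0.03 to 0.04 in the ZK3-WT libraries and 0.32, 0.28 and -0.02 in the ZK3-KO libraries. The part of the stress, cell cycle and p53 target genes in the levels of the members was not tested.

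**Figure D4:**
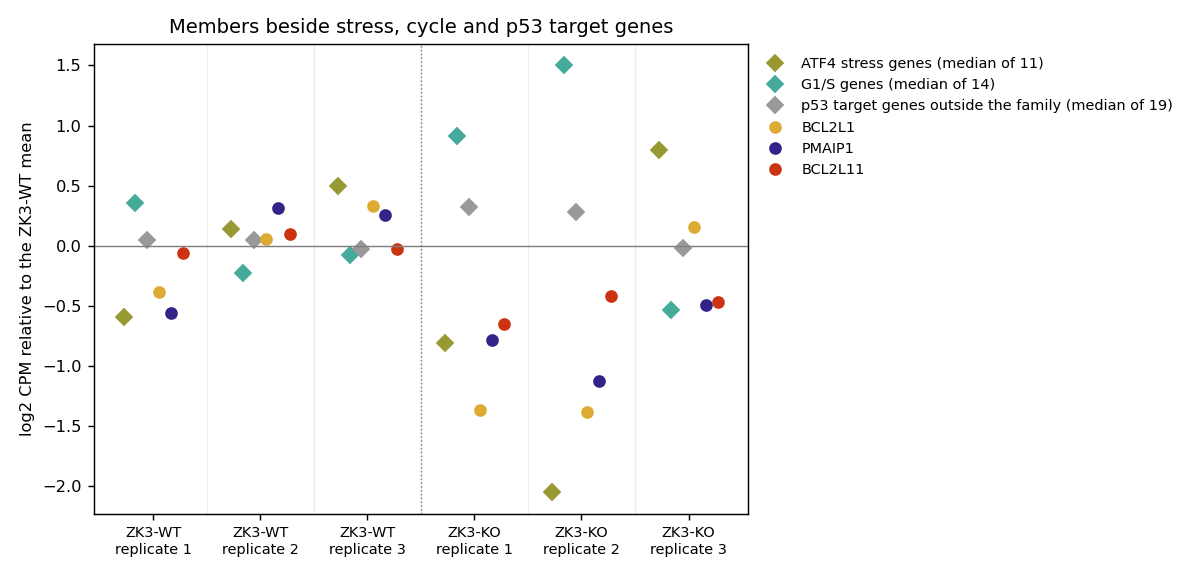
Log2 CPM relative to the ZK3-WT mean (vertical axis) in each library (horizontal axis), with diamonds for the medians of ATF4 stress genes (11), G1/S genes (14) and p53 target genes outside the family (19) and circles for BCL2L1, PMAIP1 and BCL2L11. In ZK3-KO replicate 3 BCL2L1 is at 0.15 and the ATF4 genes at 0.80, above their positions in ZK3-KO replicates 1 and 2, while BCL2L11 is at -0.47 there and at -0.65 and -0.42 in the others.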

How the data were processed

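RNA of parental HCT116 cells (ZK3-WT) and of ZK3-KO cells was sequenced by the authors from stranded poly(A) libraries, with 3 biological replicates each. Samples were grouped by the genotype in their labels. The table that the authors deposited lists, for each gene and library, an unnormalized read count, and TPM values that the authors scaled by transcript length so that each library sums to nearly the same total. FPKM values in the table were not used. The submitters' processing notes name Bowtie2 2.2.5 and hg19 (GRCh37). The methods name an Ensembl annotation in Partek Flow, whereas the table's identifiers are those of NCBI Gene and RefSeq.

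The analysis used edgeR 4.0.16 and limma 3.58.1 under R 4.3.3. After filterByExpr, 18366 genes were normalized with TMM factors (0.910 in ZK3-KO replicate 3, 0.994 to 1.03 in the other libraries) and compared with the quasi-likelihood test, with genotype as the only term and Benjamini-Hochberg adjustment over all genes (threshold 0.05). P-values measure the spread between these cultures only. CPM are TMM-normalized. Shares and ratios between genes were computed from TPM. There were 13 alternatives. They used another tool (DESeq2 1.42.0), other scaling (upper-quartile factors or library totals alone), other filters (any read at all, or a minimum of 10 reads per library), limma on log2(TPM + 1), the replicate number as a block, or 1 of the 6 libraries left out. The script was tested on simulated data.

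The members and lists were chosen with earlier results of these data known. The text names all members, the other family genes, ZKSCAN3, and from each further list the genes past the FDR (at most 4) or else the gene with the lowest p. Deviations from the genotype mean were correlated between libraries of equal replicate number (0.294 for number 1, 0.112 for number 2, 0.449 for number 3, against -0.343 to 0.209 for unequal numbers). What the numbers mark is not stated, and the block was used as an alternative only. GRCh37 positions were matched by symbol for 15972 of the 18366 tested genes (87.0%), and promoters came from RefSeq on GRCh38.p14.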

Additional observations from a re-analysis of the deposited data

How the results depend on the processing

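Of 130 log2 fold changes of the members under the alternatives, 116 kept their sign and their side of the FDR threshold, 5 passed it where the reported value did not, and 9 changed sign. The calls of BAX, FOXO4 and SPATA18 were lost in 22 cases. No member passed with library totals alone, upper-quartile factors, either filter, log2(TPM + 1) or the replicate block. DESeq2 called 1 member and 1506 genes in all, against 0 and 376. Leaving out a library gave 0 to 4 members and 49 to 2858 genes, and the 4 members and 2858 genes were found without ZK3-KO replicate 3. With the replicate block, which pairs libraries by number, 461 genes and 0 members passed, and BAX was the 1 gene named in the text whose call was lost.

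The sign changed for genes whose log2 fold change in edgeR's test was smaller in size than its SE. The log2 fold change of BCL2 was -0.018 with library totals alone, -0.041 with the replicate block and -0.034 on log2(TPM + 1), and -0.27 to 0.35 with a library left out. That of BIK was -0.038 on log2(TPM + 1) and -0.17 to 0.26 with a library left out, and that of BMF was -0.49 to 0.26. Values with a library left out ran from -0.88 to 0.28 for BBC3, -0.31 to 0.22 for BNIP3L, -0.10 to 0.11 for BECN1 and -0.29 to 0.086 for ZKSCAN3. BECN1 was also at -0.069 with library totals alone, -0.0018 with upper-quartile factors and -0.11 on log2(TPM + 1). The difference in the log2 ratio of BH3-only to pro-survival members was -0.12 from CPM and -0.11 to 0.30 with a library left out, so it has no stable direction. The difference in the MCL1 share was 18.2 percentage points from CPM and 15.1 to 21.7 with a library left out. The cause of these changes was not tested. BCL2 and BMF had the fewest reads of the members, with as few as 98 and 124 in a library.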
